A study of Mus musculus with 2 samples.

Results

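The cells described are dendritic cells chosen by the UMIs of Ppp1r14a, Ffar2 and Nccrp1, from the immune cells of the pancreas of NOD mice. A UMI (unique molecular identifier) stands for 1 captured mRNA molecule. A cell was a member when it held 10 or more UMIs of the MHC class II chain H2-Aa and a sum of 2 or more UMIs of Ppp1r14a, Ffar2 and Nccrp1. It also had to hold fewer than 10 UMIs of Lyz2 (lysozyme), fewer than 5 of the C1q genes, fewer than 3 of Siglech, at most 2 of Cd79a, at most 1 of the Cd3 genes and 0 of Xcr1. 121 of 3913 kept cells met the rule, 96 of 2804 in the 12 week library and 25 of 1109 in the 7 week library. The rule uses measured values, so the levels of its genes describe the members and support nothing.

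Both groups were female mice of the strain NOD/ShiLtJ, which develops autoimmune diabetes, and differed in age, 12 weeks or 7 weeks. CD45.1+ cells, the leukocytes of this strain, had been sorted from the pancreas and made into 10x Genomics Chromium 3' libraries. There was 1 library per age, so age and library cannot be told apart, and the sources used here do not state how many mice each came from. No test was therefore possible, and each interval below is an exact 95% interval that covers counting error only.

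The files held 2812 barcodes at 12 weeks and 1113 at 7 weeks, and 8 at 12 weeks and 4 at 7 weeks were left out for fewer than 200 genes or over 10% mitochondrial UMIs. The libraries summed to 19288252 UMIs at 12 weeks and 8701184 UMIs at 7 weeks. Members held 3039 to 27607 UMIs at 12 weeks (median 11506.5) and 4007 to 17371 UMIs at 7 weeks (median 11469). These medians lay above those of all kept cells, 4966 UMIs at 12 weeks and 5650 UMIs at 7 weeks. 2 barcodes occurred in both libraries, and 1 of them was a member. No doublet caller was run, and 1 member, at 12 weeks, held over 20000 UMIs.

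Dendritic cells take up antigen, present its peptides on MHC class II and migrate to lymph nodes to prime T cells. Conventional dendritic cells fall into the cDC1 type (Xcr1, Clec9a, Irf8), which cross-presents to CD8 T cells, and the cDC2 type (Sirpa, Irf4), which mainly primes CD4 T cells. A mature migratory state marked by Fscn1 and Ccr7 can arise from both. In the pancreas of NOD mice, dendritic cells carry islet antigens to the draining lymph node, where autoreactive T cells first respond.

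Of the genes that name the cells, Ppp1r14a encodes a phosphorylation-dependent inhibitor of myosin phosphatase. Ffar2 encodes a G protein-coupled receptor for short-chain fatty acids, and Nccrp1 a protein with an F-box associated domain. Cfp, which the rule did not use, encodes properdin, the plasma protein that stabilises the C3 convertase of the alternative complement pathway. The genes of the rule that name the cells lie on the same chromosome of the mm10 build. Nccrp1 was annotated at chr7:28543596-28547254 on the minus strand, Ppp1r14a at chr7:29289308-29293801 on the plus strand and Ffar2 at chr7:30818348-30823775 on the minus strand. They span 2280 kb, with 91 other protein coding genes between the outer pair. Cfp was annotated at chrX:20925454-20931555 on the minus strand.

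The promoters of the markers with a RefSeq entry (3 of 4, GRCm38.p6, the assembly behind mm10) are shown because these genes were detected in the same cells. Each runs from 250 bases before the gene's start to 50 bases after it, 5′ to 3′ along the gene, and lies at chr7:29289070-29289369 (plus strand), chr7:30823726-30824025 (minus strand, the furthest upstream of 4 entries) and chrX:20931506-20931805 (minus strand). Capitals mark a match to a searched motif.
Ppp1r14a: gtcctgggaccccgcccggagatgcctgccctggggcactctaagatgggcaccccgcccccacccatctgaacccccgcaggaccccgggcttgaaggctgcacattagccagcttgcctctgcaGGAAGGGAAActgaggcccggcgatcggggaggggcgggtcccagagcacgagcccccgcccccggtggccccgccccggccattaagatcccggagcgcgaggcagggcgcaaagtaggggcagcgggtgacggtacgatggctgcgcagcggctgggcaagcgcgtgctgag
Ffar2: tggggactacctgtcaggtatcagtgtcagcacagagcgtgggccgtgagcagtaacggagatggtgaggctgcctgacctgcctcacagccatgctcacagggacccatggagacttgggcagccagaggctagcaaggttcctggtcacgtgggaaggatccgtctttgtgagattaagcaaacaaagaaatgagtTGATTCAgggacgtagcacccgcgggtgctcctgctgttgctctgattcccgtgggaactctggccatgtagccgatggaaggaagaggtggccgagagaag
Cfp: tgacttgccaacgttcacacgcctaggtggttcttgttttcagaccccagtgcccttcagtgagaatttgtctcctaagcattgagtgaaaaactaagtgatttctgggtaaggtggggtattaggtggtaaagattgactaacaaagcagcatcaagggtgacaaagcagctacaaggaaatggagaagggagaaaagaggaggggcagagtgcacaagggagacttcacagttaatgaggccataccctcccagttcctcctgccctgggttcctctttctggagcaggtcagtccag
5 motifs bound by factors of dendritic cells were searched on both strands, and matches may overlap. The composite ETS-IRF motif (GGAA, 2 bases of any kind, GAAA) matched the Ppp1r14a promoter, starting 124 bases before the gene's start, and is held by 2.72% of 32851 promoters. The AP-1 and BATF motif TGANTCA matched the Ffar2 promoter, starting 52 bases before the start, and is held by 7.81% of promoters. The Cfp promoter held no match to these or to the PU.1 motif GAGGAAGT (3.20% of promoters), the RUNX motif TGTGGTT (5.27%) or the IRF motif, GAAA, 2 bases of any kind and GAAA (3.44%). A match is a run of letters, not a shown site. GC content was 71.3% for Ppp1r14a (25 CpG), 57% for Ffar2 (11 CpG) and 49% for Cfp (2 CpG), against a median of 52.7% over all promoters.

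Most members held more than 1 of the genes in the rule. All 3 were detected in 58 of 96 members at 12 weeks (60.4%) and 9 of 25 at 7 weeks (36%). Exactly 2 were detected in 24 members at 12 weeks and 10 at 7 weeks, and 1 gene in 14 members at 12 weeks and 6 at 7 weeks. The commonest pair was Ppp1r14a with Ffar2 (18 members at 12 weeks, 6 at 7 weeks), and Ffar2 alone was the commonest single gene (10 members at 12 weeks, 6 at 7 weeks). Among the 169 cells that met every limit except the sum, Ffar2 was detected in 91 of 101 cells with a Ppp1r14a UMI (90.1%), against 26 of 68 cells without one (38.2%). Nccrp1 was detected in 70 of those 101 cells (69.3%), against 8 of 68 (11.8%). Across all kept cells Ffar2 was detected in 78.5% of cells with a Ppp1r14a UMI and in 2.37% of the others. The genes were thus detected in the same cells, which is a description, since deeper cells hold more of every gene.

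Per member, Ppp1r14a had 0 to 13 UMIs at 12 weeks (median 3) and 0 to 12 at 7 weeks (median 2). Ffar2 had 0 to 22 UMIs at 12 weeks (median 5) and 0 to 19 at 7 weeks (median 2). Nccrp1 had 0 to 24 UMIs at 12 weeks (median 2) and 0 to 14 at 7 weeks (median 1). The ranges of the libraries overlapped for each gene. UMIs were then summed over the members of a library and scaled to 1000000 (CPM). Ppp1r14a stood at 335 CPM (12 weeks) and 311 CPM (7 weeks), Ffar2 at 482 CPM (12 weeks) and 402 CPM (7 weeks), and Nccrp1 at 275 CPM (12 weeks) and 195 CPM (7 weeks). Members held 71.8% of the 12 week library's Ppp1r14a UMIs and 55.5% of the 7 week library's, with 5.56% of all UMIs at 12 weeks and 3.18% at 7 weeks.

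The properdin gene Cfp, outside the rule, had 0 to 36 UMIs per member at 12 weeks (median 8.5, detected in 91 of 96) and 1 to 21 at 7 weeks (median 5, detected in 25 of 25). It stood at 894 CPM (12 weeks) and 705 CPM (7 weeks), with a 12 over 7 week ratio of 1.27 (interval 1.09 to 1.49). Both libraries thus had Cfp in nearly all members, over ranges that overlapped. Members held 45.0% of the 12 week library's Cfp UMIs and 32.2% of the 7 week library's. The plot of marker UMIs per cell shows this spread.

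**Figure D1:**
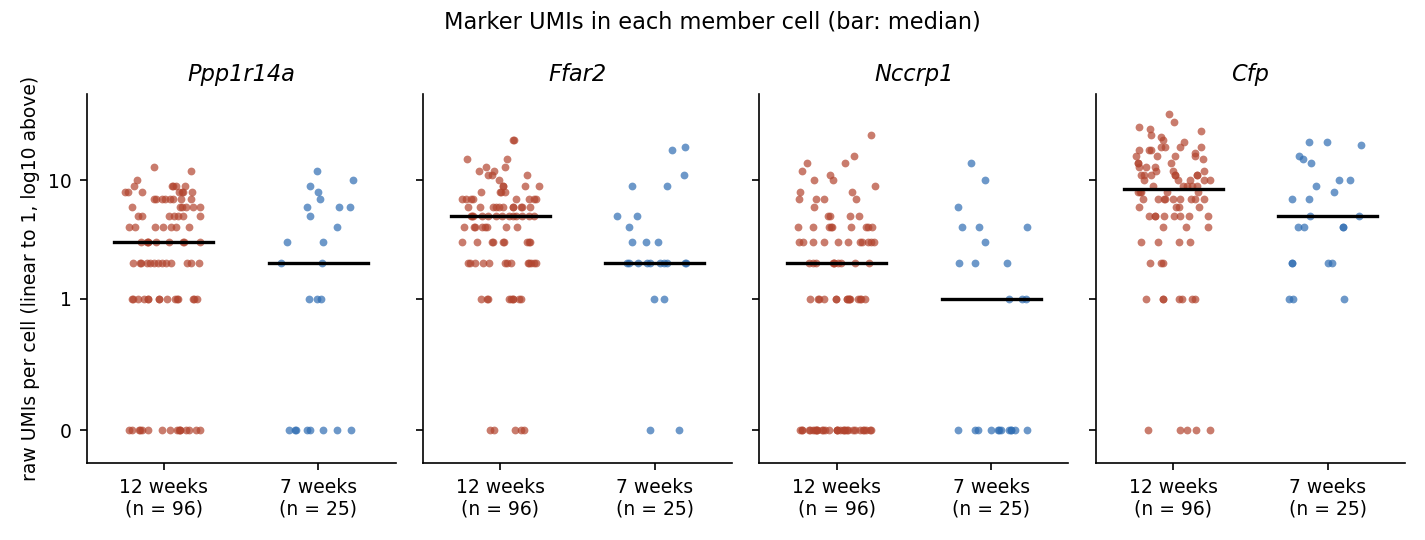
Raw UMIs per cell (vertical axis, linear up to 1 and log10 above) of Ppp1r14a, Ffar2, Nccrp1 and Cfp in each member, 12 weeks (96 cells) beside 7 weeks (25 cells), with a bar at the median. The cells of both libraries overlap for each gene, and the Cfp median was 8.5 UMIs at 12 weeks and 5 UMIs at 7 weeks.

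At the edge of the rule, cells that met every other limit lay on both sides of a sum of 2 UMIs. 41 cells had a sum of 0 (31 at 12 weeks, 10 at 7 weeks), 7 a sum of 1, 12 a sum of 2, 11 a sum of 3, 38 a sum of 4 to 9 and 60 a sum of 10 or more. With both libraries pooled, Cfp stood at 360 CPM at a sum of 0, 590 at 1, 415 at 2, 909 at 3, 750 at 4 to 9 and 967 at 10 or more. Ltb stood at 288 CPM at a sum of 0, 401 at 1, 318 at 2, 811 at 3, 892 at 4 to 9 and 1044 at 10 or more. Both genes stood lower at sums up to 2 than at higher sums. Cd7 stood at 399 CPM at a sum of 0, 142 at 1, 388 at 2, 427 at 3, 560.4 at 4 to 9 and 436 at 10 or more. Cd209a (DC-SIGN) ran the other way, at 298 CPM for a sum of 0, 23.6 at 1, 300.2 at 2, 296 at 3, 78.9 at 4 to 9 and 3.94 at 10 or more.

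Members made up 3.42% of kept cells (interval 2.78% to 4.16%) in the 12 week library, against 2.25% (interval 1.46% to 3.31%) in the 7 week library. The ratio of the shares, 1.52, had an interval that includes 1 (0.970 to 2.46). Of kept cells with 10 or more H2-Aa UMIs and at most 2 Cd79a UMIs, members made up 96 of 288 (33.3%, interval 27.9% to 39.1%) at 12 weeks and 25 of 122 (20.5%, interval 13.7% to 28.7%) at 7 weeks. That ratio was 1.63 (interval 1.04 to 2.64), and the interval leaves out any variation between mice or libraries.

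The members held markers of conventional dendritic cells. Flt3, the receptor of the cytokine that dendritic cells need to develop, stood at 167 CPM (12 weeks) and 137 CPM (7 weeks). Itgax (CD11c) stood at 189 CPM (12 weeks) and 213 CPM (7 weeks). Zbtb46, a transcription factor of conventional dendritic cells, stood at 45.8 CPM (12 weeks) and 72.3 CPM (7 weeks). All 10 genes of the conventional dendritic cell list had 30 or more UMIs over both libraries. With each cell thinned to 2000 UMIs, Flt3 was detected in 35.4% of members at 12 weeks and 20% at 7 weeks, against 2.11% of B cells at 12 weeks and 0.926% at 7 weeks. B cells, which should lack Flt3, served as the measure of free RNA, and their median depth before thinning was 4600 UMIs at 12 weeks and 5034.5 UMIs at 7 weeks. Cd74, the invariant chain of MHC class II, stood at 24935 CPM (12 weeks) and 22960.2 CPM (7 weeks).

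Markers that divide conventional dendritic cells into types were uneven. Of cDC2 genes, the inhibitory receptor Sirpa stood at 177 CPM (12 weeks) and 148 CPM (7 weeks), and the transcription factor Irf4 at 14 CPM (12 weeks) and 18.1 CPM (7 weeks). Cd209a was detected in 7 of 96 members at 12 weeks and 8 of 25 at 7 weeks, and Mgl2, a galactose-binding lectin, in 8 of 96 at 12 weeks and 0 of 25 at 7 weeks. Cd209a and Mgl2 were thus absent from most members. Clec9a, the cDC1 receptor for dead cells, had 1 UMI in each library, and Irf8, which cDC1 need, stood at 73.8 CPM (12 weeks) and 57.9 CPM (7 weeks). Tbx21 (T-bet), which marks a cDC2 subset of mouse spleen, stood at 18.7 CPM (12 weeks) and 14.5 CPM (7 weeks). The Notch target Hes1 had 0 UMIs in both. Ltb, of the T-bet subset's list, was detected in 94 of 96 members at 12 weeks and 25 of 25 at 7 weeks. That list summed to 1108 CPM (12 weeks) and 865 CPM (7 weeks) in members. It summed to 385 CPM (12 weeks) and 484 CPM (7 weeks) in cells with 10 or more Lyz2 UMIs. In B cells it summed to 1202 CPM (12 weeks) and 1095 CPM (7 weeks). Most of the list's sum in members was Ltb itself. The median per member at 12 weeks was 877 CPM for Ltb and 991 CPM for the list. At 7 weeks it was 709 CPM for Ltb and 780 CPM for the list. Cd7, of the cDC2 list, was detected in 74 of 96 members at 12 weeks and 21 of 25 at 7 weeks. The members are therefore called by their genes and given no type name.

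Markers of other blood cells were uneven in members. The monocyte list, which holds Plac8 and S100a4, summed to 7319 CPM (12 weeks) and 6067 CPM (7 weeks) in members, against 16397 CPM (12 weeks) and 14219 CPM (7 weeks) in cells with 10 or more Lyz2 UMIs, a gene of that list. In cells with Xcr1 or Fscn1 it summed to 2104 CPM (12 weeks) and 3419 CPM (7 weeks). The macrophage gene Mertk and the granulocyte genes S100a8 and S100a9 had 0 UMIs in both libraries. The high affinity IgG receptor Fcgr1 stood at 4.67 CPM (12 weeks) and 10.9 CPM (7 weeks). The macrophage list summed to 281 CPM (12 weeks) and 264 CPM (7 weeks) in members, against 1185 CPM (12 weeks) and 1140 CPM (7 weeks) in cells with 10 or more Lyz2 UMIs. RNA of pancreatic tissue differed between the libraries. The 15 acinar genes summed to 188 CPM in members at 12 weeks, against 54.3 CPM at 7 weeks, with a ratio of 3.46 (interval 2.05 to 6.30). They had a UMI in 77 of 96 members at 12 weeks and 4 of 25 at 7 weeks, and their ratio in B cells was 2.66. At 7 weeks 1 cell held 66.7% of the members' acinar UMIs and 1 held 90.3% of those of B cells. The 7 week levels thus rest on few cells, which raise those levels and so lower both ratios. At 12 weeks the acinar UMIs were spread over more cells, with a UMI in 346 of 475 B cells, against 8 of 108 at 7 weeks. The 10 endocrine genes summed to 206 CPM (12 weeks) and 94.1 CPM (7 weeks), and their ratio was 2.2 in members (interval 1.46 to 3.44) and 7.97 in B cells (interval 4.28 to 16.8). The part of this RNA in any difference between the libraries was not tested, and both lists were left out of the ranked genes.

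Several genes outside the rule were detected in most members. Ltb encodes lymphotoxin beta, a membrane cytokine subunit needed for lymphoid tissue, and had 0 to 54 UMIs per member at 12 weeks (median 9) and 1 to 44 at 7 weeks (median 6). After thinning it was detected in 76.0% of members at 12 weeks and 76% at 7 weeks, against 79.4% of B cells at 12 weeks and 82.4% at 7 weeks, a type that expresses Ltb. Cd7, an immunoglobulin superfamily receptor of lymphoid cells, had 0 to 58 UMIs at 12 weeks (median 3) and 0 to 20 at 7 weeks (median 3). The thinned share with Cd7 was 46.9% of members at 12 weeks and 44% at 7 weeks, against 1.89% of B cells at 12 weeks and 2.78% at 7 weeks. Runx3 encodes a transcription factor of lymphocytes and dendritic cells. It had 0 to 17 UMIs per member at 12 weeks (median 3) and 0 to 15 at 7 weeks (median 4). The thinned share was 43.8% of members at 12 weeks and 60% at 7 weeks, against 8% of B cells at 12 weeks and 4.63% at 7 weeks. The Runx3 share was 29.2% (12 weeks) and 30% (7 weeks) of cells with 10 or more Lyz2 UMIs. Of cells with Xcr1 or Fscn1 it was 26.9% at 12 weeks and 0% of 5 cells at 7 weeks. Kit, the stem cell factor receptor, was detected without thinning in 55 of 96 members at 12 weeks and 19 of 25 at 7 weeks. For Cd7 and Runx3 the ranges of UMIs per member overlapped between the libraries.

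Members were set beside 2 gates of other H2-Aa cells. Lyz2-high cells met the limits of the rule on other genes but held 10 or more Lyz2 UMIs, 24 cells at 12 weeks and 10 at 7 weeks. Xcr1 or Fscn1 cells held at least 1 Xcr1 UMI or 2 Fscn1 UMIs, met the other limits and were no members, 26 cells at 12 weeks and 5 at 7 weeks. A gate against another gate is no test, and the genes of the gates were left out. In the map of levels by gate, Cfp, Cd7, Ltb and Ifitm1 are highest in members, Csf1r and Fcgr1 in Lyz2-high cells, and Irf8 and Naaa in Xcr1 or Fscn1 cells, in both libraries.

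**Figure D2:**
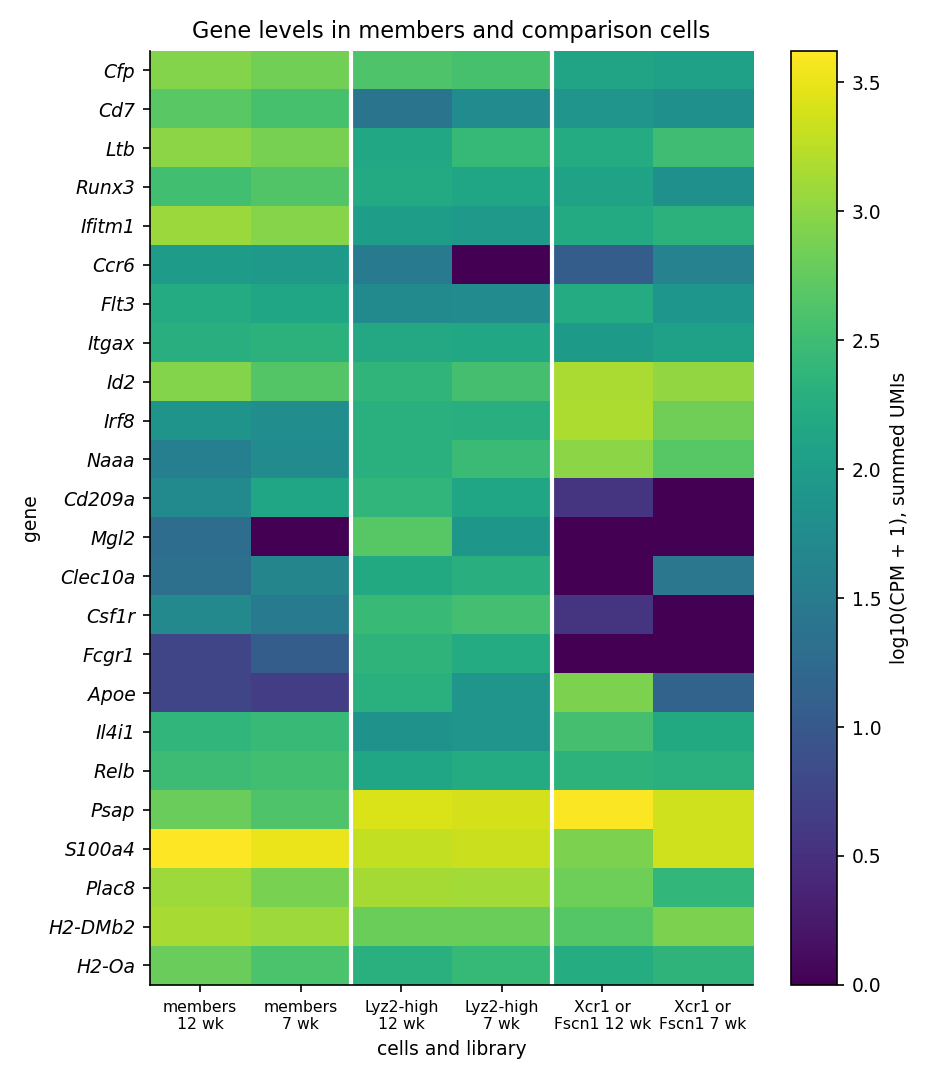
Level of 24 genes (rows) as log10 of CPM plus 1 (colour) in members, Lyz2-high cells and Xcr1 or Fscn1 cells (columns, 12 weeks left of 7 weeks in each). Cd7 stood at 490 CPM (12 weeks) and 373 CPM (7 weeks) in members, against 24.0 CPM (12 weeks) and 55.3 CPM (7 weeks) in Lyz2-high cells and 77.1 CPM (12 weeks) and 65.5 CPM (7 weeks) in Xcr1 or Fscn1 cells.

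Against Lyz2-high cells, 203 of 4595 genes were 2-fold or more higher in members in both libraries (4.42%) and 131 were 2-fold or more lower (2.85%). Ifitm1, an interferon-induced membrane protein, stood at 1203 CPM in members against 103 CPM in Lyz2-high cells at 12 weeks, and at 915 CPM in members against 89.8 CPM in Lyz2-high cells at 7 weeks. These are ratios of 11.7 at 12 weeks and 10.2 at 7 weeks. Slc7a5, a transporter of large neutral amino acids, had ratios of 10.1 at 12 weeks and 11.5 at 7 weeks. Cd7 had ratios of 20.4 at 12 weeks and 6.74 at 7 weeks. Eno3, the muscle form of the glycolytic enzyme enolase, had ratios of 15.2 at 12 weeks and 7.85 at 7 weeks, and Sept3, a septin best known from neurons, 17.7 at 12 weeks and 8.12 at 7 weeks. Several genes of this ranking had 1 to 3 UMIs in the comparison cells.

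The genes furthest below belonged to monocytes and macrophages. Since Lyz2, a gene of the monocyte list, chose the comparison cells, such genes follow from the gate. The counts of chemokine and macrophage genes below carry the same limit. Fcgr1 had ratios of 0.0206 at 12 weeks and 0.0655 at 7 weeks. Apoe, a lipid carrier that macrophages secrete, had ratios of 0.0234 at 12 weeks and 0.0476 at 7 weeks. The chemokine gene Ccl9 had ratios of 0.0638 at 12 weeks and 0.0403 at 7 weeks. Of 10 chemokine genes measured, 0 were 2-fold higher in members in both libraries and 8 were 2-fold lower. Of 6 macrophage genes measured, 0 were higher and 5 were lower.

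Genes of antigen handling lay on both sides. H2-DMb2, a chain of the peptide exchange factor H2-DM, stood at 1389 CPM in members against 632 CPM in Lyz2-high cells at 12 weeks, and at 1248 CPM in members against 643 CPM in Lyz2-high cells at 7 weeks. H2-Oa, a chain of the H2-DM inhibitor H2-O, stood at 621 CPM in members against 196 CPM in Lyz2-high cells at 12 weeks, and at 394 CPM in members against 263 CPM in Lyz2-high cells at 7 weeks. Psap, the precursor of the lysosomal saposins, stood at 618 CPM in members against 2604 CPM in Lyz2-high cells at 12 weeks, and at 423 CPM in members against 2480.4 CPM in Lyz2-high cells at 7 weeks. H2-DMb2 and H2-Oa were thus 2-fold higher in members at 12 weeks only, and Psap was lower in both libraries. Of 15 lysosome and proteolysis genes, 0 were 2-fold higher in members in both libraries and 4 were lower, and of 14 class II presentation genes 1 was higher and 1 lower.

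Against Xcr1 or Fscn1 cells, 177 of 4164 genes were 2-fold or more higher in members in both libraries (4.25%) and 55 were 2-fold or more lower (1.32%). Ccrl2, a receptor that binds chemerin, had ratios of 14.3 at 12 weeks and 10.4 at 7 weeks. Cfp had ratios of 6.86 at 12 weeks and 5.98 at 7 weeks, and Rgs1, a regulator of G protein signalling, 5.35 at 12 weeks and 4.86 at 7 weeks. Some genes of receptors, or of receptor families, known from natural killer cells ranked high as well. Klra17, of the Ly49 family, had ratios of 12.6 at 12 weeks and 4.69 at 7 weeks, and Cd244, of the SLAM family, 27.2 at 12 weeks and 4.83 at 7 weeks. At 7 weeks the comparison cells held only 4 Klra17 UMIs and 2 Cd244 UMIs. Klrb1c, the natural killer cell receptor NK1.1, had 0 UMIs in members of both libraries. Klrd1 (CD94), a partner of natural killer receptors, was detected in 67.7% of members at 12 weeks and 60% at 7 weeks. The list of natural killer and innate lymphoid genes had a UMI in 43 of 96 members at 12 weeks and 9 of 25 at 7 weeks. Some of these ratios depended on the rule. Over 7 alternatives the smaller ratio of the libraries fell to 1.16 for Cd7, 1.41 for Klrd1 and 2.83 for Ccrl2. For Klra17 it fell to 1, with no direction shared by the libraries, while for Cd244 it was at least 4.56. The genes furthest below included Irf8, with ratios of 0.0500 at 12 weeks and 0.0850 at 7 weeks, and Naaa, a lysosomal amidase, with 0.0365 at 12 weeks and 0.112 at 7 weeks. Since Xcr1 chose some of these cells, the cDC1 genes follow from the gate. The 12 week comparison cells also held 782 CPM of the stromal list, of which 1 of the 26 cells held 97.6%, and its part in these ratios was not tested.

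Within the members, the 12 week library was set against the 7 week library gene by gene. Of 4772 genes with 30 or more UMIs over both libraries, 294 were 2-fold or more higher at 12 weeks (6.16%) and 171 were 2-fold or more lower (3.58%). The median log2 ratio over these genes was 0.046. Genes of cell division were among those furthest above, and immediate-early genes and the chemokine gene Cxcl9 among those furthest below. In the plot of ratios by level, most cell cycle genes lie above the upper 2-fold line, most immediate-early and stress genes lie between the lines, and so do the markers.

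**Figure D3:**
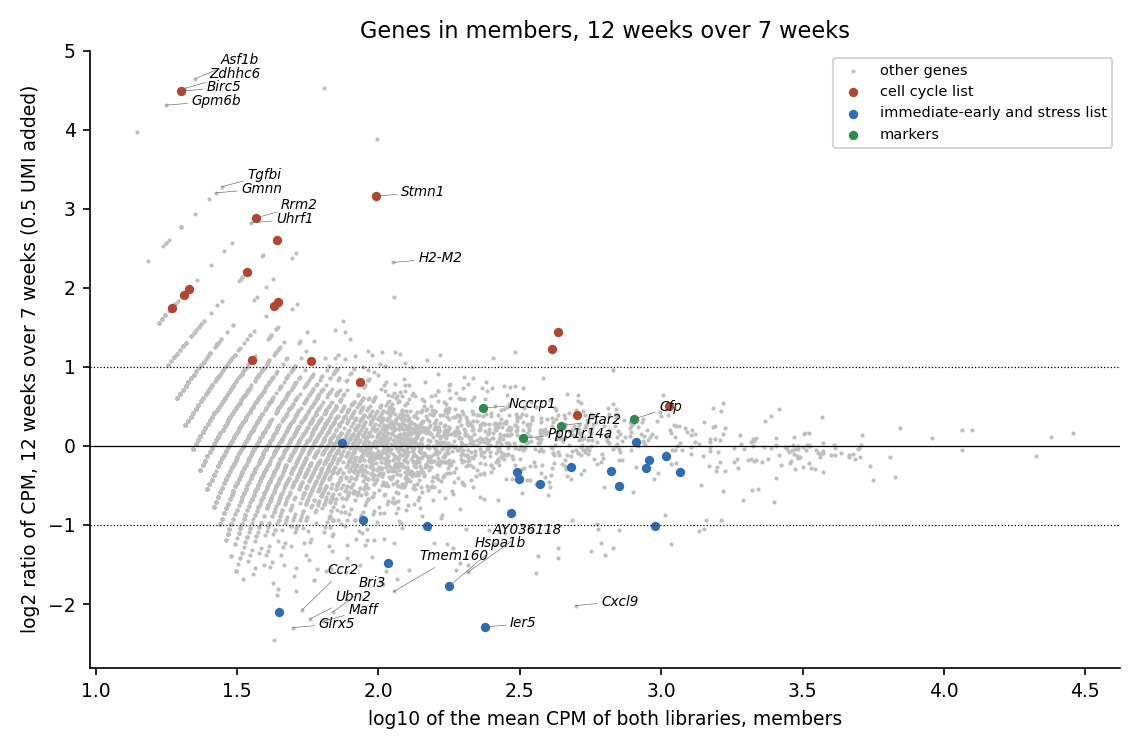
Log2 ratio of CPM in members, 12 weeks over 7 weeks (vertical axis), against log10 of the mean CPM of both libraries (horizontal axis), 1 point per gene with 30 or more UMIs. Dotted lines mark 2-fold, colours mark the cell cycle list, the immediate-early and stress list and the markers, and the ranked genes are labelled, with Stmn1 (177 CPM at 12 weeks, 18.1 CPM at 7 weeks) above the upper line and Ier5 and Cxcl9 below the lower.

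Stmn1, a microtubule-destabilising protein of dividing cells, had 0 to 37 UMIs per member at 12 weeks (23 of 96 cells with a UMI) and 0 to 3 at 7 weeks (3 of 25). It stood at 177 CPM (12 weeks) and 18.1 CPM (7 weeks), with a ratio of 9.81 (interval 4.13 to 30.6). Most members of both libraries had no Stmn1 UMI, and the highest cells were at 12 weeks. Rrm2, a subunit of ribonucleotide reductase, stood at 66.3 CPM (12 weeks) and 7.23 CPM (7 weeks), with a ratio of 9.17 (interval 2.45 to 77.2), or 6.07 without the highest cell. Birc5 (survivin) had 0 UMIs at 7 weeks and was at least 3.70-fold higher at 12 weeks, against a floor of 3 UMIs in the 7 week library. The histone chaperone Asf1b, also at 0 UMIs at 7 weeks, was at least 4.13-fold higher against that floor. Top2a, a topoisomerase of dividing cells, had a ratio of 7.06 (interval 2.33 to 34.9). Of the 17 cell cycle genes with 30 or more UMIs, of 21 listed, 14 were 2-fold or more higher at 12 weeks and 0 lower. Their median log2 ratio was 1.77 (1.89 with genes at 0 placed at their bound), beside 0.046 over all genes. Outside the members the list did not run 1 way. It summed to 3923 CPM (12 weeks) and 2156 CPM (7 weeks) in Lyz2-high cells. In Xcr1 or Fscn1 cells it summed to 3875 CPM (12 weeks) and 5136 CPM (7 weeks, 5 cells).

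The cell cycle UMIs of the members lay in a few cells. 18 of 96 members at 12 weeks (18.8%, interval 11.5% to 28.0%) held 5 or more UMIs of Mki67, Top2a, Rrm2, Tyms, Birc5 and Stmn1 together, against 0 of 25 at 7 weeks, which allows a share of up to 12% by the limit of 3 counts (exact upper limit 13.7%). The limit of 5 UMIs was set after the values had been seen. Without those 18 cells the median log2 ratio of the cell cycle list was -0.091, and 175 genes in place of 294 were 2-fold or more higher at 12 weeks. Over the 11 genes of the list that did not choose the cells, the median was 1.22 with all members and -0.21 without the 18.

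The 18 cells held the markers of the other members at other levels. Cfp stood at 986 CPM in them, against 827 CPM in the other members of both libraries, and Ltb at 923 CPM in them, against 925 CPM in the others. Ffar2 stood at 279 CPM in the 18 cells, against 506 CPM in the others, and Ppp1r14a at 258 CPM, against 346 CPM in the others. H2-Aa stood at 8946 CPM in the 18 cells, against 13997 CPM in the others. Both Cfp and Ltb were thus present in the 18 cells, with less of the class II chain. Cd86, a ligand of the costimulatory receptor CD28, stood at 141 CPM in the 18 cells, against 287 CPM in the others. The 18 cells had a median of 13904 UMIs, against 11157 UMIs in the other 12 week members, and the part of depth or doublets was not tested.

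Some immediate-early and stress genes were lower at 12 weeks. Ier5, an immediate-early gene, had 0 to 5 UMIs per member at 12 weeks (median 1) and 0 to 10 at 7 weeks (median 4), so the ranges overlapped. It stood at 80.3 CPM (12 weeks) and 394 CPM (7 weeks), with a ratio of 0.204 (interval 0.152 to 0.273). Hspa1b, a heat shock protein, stood at 80.3 CPM (12 weeks) and 275 CPM (7 weeks), with a ratio of 0.292 (interval 0.212 to 0.403). Fos, a subunit of the transcription factor AP-1, stood at 632 CPM (12 weeks) and 1277 CPM (7 weeks). Of 20 genes of the list with 30 or more UMIs, of 24 listed, 0 were 2-fold higher and 6 were 2-fold lower, with a median log2 ratio of -0.45. The Ier5 ratio was also below 1 outside the members, at 0.263 (interval 0.160 to 0.423) in Lyz2-high cells and 0.169 (interval 0.0886 to 0.320) in Xcr1 or Fscn1 cells. In B cells Ier5 stood at 44.9 CPM (12 weeks) and 282 CPM (7 weeks), and Hspa1b at 33.9 CPM (12 weeks) and 98.3 CPM (7 weeks). These differences were thus not particular to members.

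The chemokines Cxcl9 and Cxcl10, which attract T cells through the receptor Cxcr3, came from few members. Cxcl9 had 0 to 29 UMIs per member at 12 weeks (35 of 96 with a UMI) and 0 to 110 at 7 weeks (8 of 25 with a UMI), with a median of 0 in both. It stood at 197 CPM (12 weeks) and 799 CPM (7 weeks), with a ratio of 0.247 (interval 0.203 to 0.299). 1 cell held 110 of the 221 Cxcl9 UMIs at 7 weeks (49.8%), and without it the ratio was 0.491. The libraries thus differed less in the share of members with Cxcl9 (36.5% at 12 weeks, 32% at 7 weeks) than in the level of the highest cells. After thinning, 20.8% of members at 12 weeks and 28% at 7 weeks had a Cxcl9 UMI, against 0.842% of B cells at 12 weeks and 0.926% at 7 weeks. Cxcl10 stood at 55.1 CPM (12 weeks) and 177 CPM (7 weeks), and had a UMI in 13 members at 12 weeks and 4 at 7 weeks. Of 14 interferon gamma response genes 0 were 2-fold higher and 3 were lower, with a median log2 ratio of -0.22, or 0.065 without the cell highest in each gene.

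**Figure D4:**
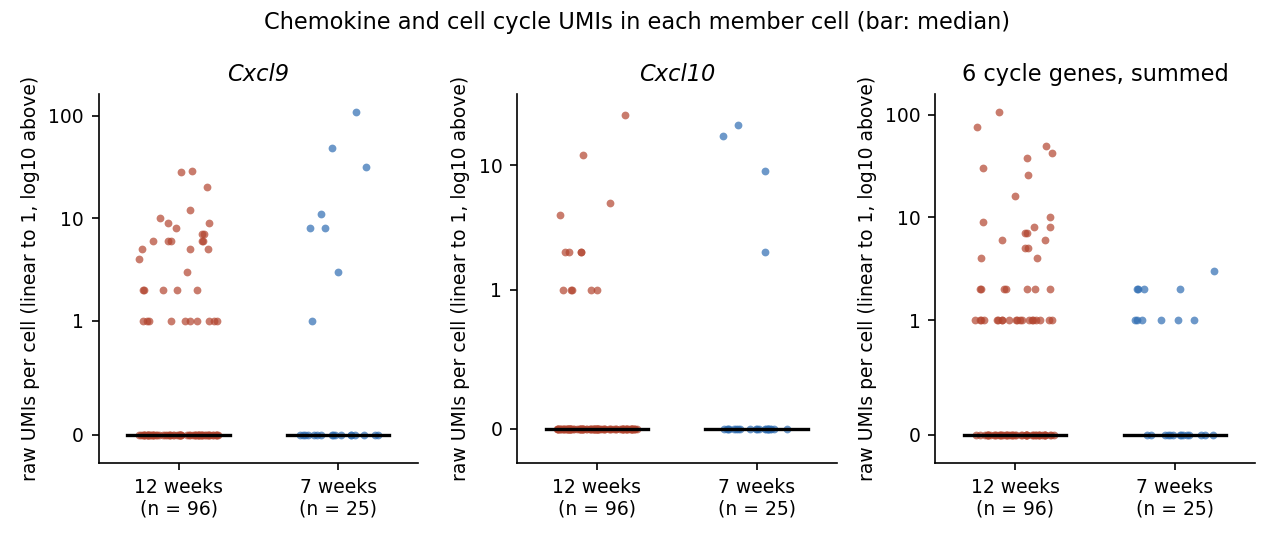
Raw UMIs per cell (vertical axes, linear up to 1 and log10 above) of Cxcl9, Cxcl10 and the sum of 6 cell cycle genes in each member, 12 weeks beside 7 weeks, with a bar at the median. The highest Cxcl9 cell (110 UMIs) was at 7 weeks, and the cell cycle sum reached 107 UMIs at 12 weeks and 3 UMIs at 7 weeks.

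As a pool, members with Cxcl9 had more of some other interferon-induced genes. 18 members at 12 weeks and 6 at 7 weeks held 5 or more Cxcl9 UMIs, a limit set after the values had been seen. With both libraries pooled, Cxcl10 stood at 370 CPM in them, against 10.1 CPM in the other members. Of its 97 UMIs in the Cxcl9 cells, single cells held 25, 21, 17, 12 and 9. Most of the Cxcl9 cells had 0 Cxcl10 UMIs. Isg15, a ubiquitin-like modifier, stood at 309 CPM in the Cxcl9 cells, against 94.9 CPM in the others. The activation receptor Cd40 stood at 210 CPM in the Cxcl9 cells, against 69.1 CPM in the others, and the maturation marker Cd83 at 206 CPM, against 70.1 CPM in the others. The ratios of Cd80 and Cd274 had intervals that include 1. Cd80 stood at 30.5 CPM in the Cxcl9 cells, against 37.8 CPM in the others, and Cd274 (PD-L1) at 118 CPM in the Cxcl9 cells, against 108 CPM in the others. Id2, a transcriptional inhibitor needed by dendritic cells, stood at 416 CPM in the Cxcl9 cells, against 898 CPM in the others.

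Some members held Fscn1, the actin-bundling protein of mature dendritic cells. 26 members at 12 weeks (27.1%, interval 18.5% to 37.1%) and 6 at 7 weeks (24%, interval 9.36% to 45.1%) had 2 or more Fscn1 UMIs. Most of the 18 members that held cell cycle UMIs were among these 26, so the groups overlap. With both libraries pooled, Il4i1, a secreted amino acid oxidase, stood at 493 CPM in the Fscn1 cells, against 154 CPM in the other members. Of its 191 UMIs in the Fscn1 cells, single cells held 41, 34 and 34. Ccr7, the receptor that guides mature dendritic cells to lymph nodes, stood at 51.7 CPM in the Fscn1 cells, against 12.5 CPM in the others. However, its 20 UMIs in Fscn1 cells were all at 12 weeks. Cd83 stood at 181 CPM in them, against 62.5 CPM in the others. The ratios of the CD28 ligands had intervals that include 1, with Cd86 at 238 CPM in the Fscn1 cells, against 269.9 CPM in the others, and Cd80 at 41.3 CPM in them, against 34.4 CPM in the others. Ffar2 stood at 325 CPM in the Fscn1 cells, against 522 CPM in the others, and Cfp at 881 CPM, against 845 CPM in the others. Ccr7 was low in these members beside the Xcr1 or Fscn1 comparison cells at 12 weeks, where it stood at 306 CPM, while those at 7 weeks held 26.2 CPM.

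Genes of dendritic cell identity and antigen presentation were compared between the ages in the same way. Id2 had 0 to 50 UMIs per member at 12 weeks (median 7) and 0 to 36 at 7 weeks (median 2), with a ratio of 1.96 (interval 1.63 to 2.38). Runx3 had a ratio of 0.762 (interval 0.619 to 0.944) and Ltb one of 1.27 (interval 1.09 to 1.47). Of 15 class II presentation genes 1 was 2-fold higher at 12 weeks and 0 lower, with a median log2 ratio of 0.15. The gene was H2-Eb2, at 113 CPM (12 weeks) and 39.8 CPM (7 weeks). Of 17 class I presentation genes 0 passed 2-fold in either direction, and their median was 0.11. Of 6 cDC2 genes 0 were higher and 3 lower, with a median of -0.49, among them Cd209a at 52.3 CPM (12 weeks) and 137 CPM (7 weeks). Without the cell highest in each gene that median was 0.022. Class I and class II genes thus lay near the median of all genes, and the cDC2 list lay below it except under that alternative and with a minimum of 10 UMIs, where its median was 0.13.

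The ranking by age named further genes with no list in common. H2-M2, a nonclassical class I gene, stood at 189.6 CPM (12 weeks) and 36.2 CPM (7 weeks), in 14.6% of members at 12 weeks and 8% at 7 weeks. 1 cell held 41.9% of its UMIs at 12 weeks and 1 held 70% at 7 weeks, and the ratio was 5.24 with all members and 3.05 without the highest cell. Zdhhc6, a palmitoyltransferase, and Gpm6b, a membrane glycoprotein, had 0 UMIs at 7 weeks and were at least 3.79-fold and 3.27-fold higher at 12 weeks against the same floor. Tgfbi, an extracellular matrix protein that monocytes make, stood at 52.3 CPM (12 weeks) and 3.62 CPM (7 weeks), where it had 1 UMI. Ccr2, the chemokine receptor of monocytes and their progeny, stood at 20.6 CPM (12 weeks) and 86.8 CPM (7 weeks), with a ratio of 0.237 (interval 0.127 to 0.441), or 0.406 without the highest cell. These monocyte genes thus differed in opposite directions. Among the lower genes, Maff, a small Maf transcription factor, had a ratio of 0.214, or 0.344 without the highest cell, and Glrx5, a mitochondrial glutaredoxin, one of 0.202. Glrx5 was also lower outside the members, at 11.4 CPM (12 weeks) and 51.5 CPM (7 weeks) in B cells. Both comparison gates had less Glrx5 at 12 weeks too. Maff stood at 1.90 CPM (12 weeks) and 18.7 CPM (7 weeks) in B cells, but at 37.8 CPM (12 weeks) and 27.6 CPM (7 weeks) in Lyz2-high cells. The plot of gene lists sets the groups side by side.

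**Figure D5:**
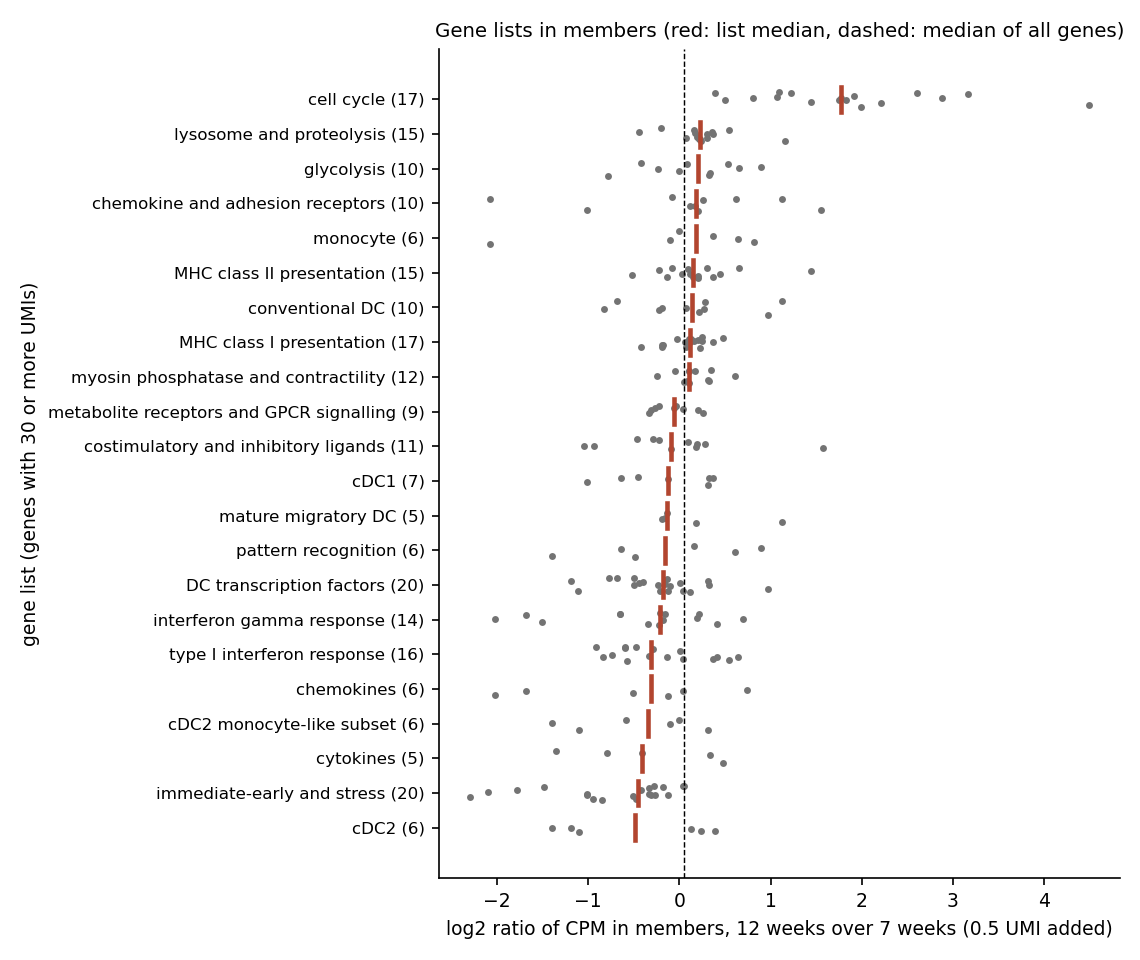
Log2 ratio of CPM in members, 12 weeks over 7 weeks (horizontal axis), of each gene with 30 or more UMIs (grey points) by list (rows), with a red bar at the list's median and a dashed line at the median of all genes. The medians were 1.77 for the cell cycle list, -0.45 for the immediate-early and stress list and 0.15 for the class II list, beside 0.046 over all genes.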

How the data were processed

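For each library the authors deposited UMI counts by gene and barcode. Per the submitters' processing notes they used Cell Ranger 1.3.1 and the mm10 build. The sources used here do not state the annotation's version or how barcodes were called as cells. The counts were whole numbers, used as deposited. UMIs of a gene were summed over the members of a library and divided by their total (CPM). A ratio has an exact conditional binomial 95% interval, a level an exact Poisson one and a share an exact Clopper-Pearson one. Captured UMIs are few per gene and cell, so low genes have wide intervals. A gene counted as past the fold at 2-fold with 30 or more UMIs over both libraries, or, against a comparison gate, 2-fold the same way in both libraries with 10 or more UMIs in each.

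Named genes were the marker genes, genes of 38 lists (1 of 444 listed genes was not in the files), the 10 highest and 10 lowest genes by age, and the 15 highest and 10 lowest against each gate. Ranking was by the interval bound nearest 1 for age, with no cell over 50% of a gene's UMIs, and by the ratio nearer to 1 of the libraries for gates. Mitochondrial, ribosomal, haemoglobin, acinar, endocrine and unnamed genes were left out of the rankings. The members and lists were chosen with earlier results of these data known. For shares at equal depth each cell was thinned to 2000 UMIs, which left out 0 cells. B cells held 5 or more Cd79a UMIs and 0 of the Cd3 genes. Gene positions came from GENCODE vM21, which held 27645 of the 27998 gene identifiers. Python 3.11.15, numpy 2.4.6, scipy 1.17.1, pandas 2.3.3 and matplotlib 3.10.9 were used, with scaling factors from edgeR 4.0.16 and DESeq2 1.42.0 in R 4.3.3 as alternatives. The ratio and interval code was tested on simulated data. Results of some listed genes are not reported here.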

Additional observations from a re-analysis of the deposited data

Results flagged for a closer look

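9 of the genes reported here differed between the libraries in opposite directions in members and in Lyz2-high cells, each with an interval that excludes 1 in both. They are listed without the share over all genes, so their number does not tell how common this was. The differences between the ratios were not tested, and Lyz2-high cells were few (24 at 12 weeks, 10 at 7 weeks). 7 of the genes were lower at 12 weeks in members and higher at 12 weeks in Lyz2-high cells. The 12 over 7 week ratio of Cxcl10 was 0.311 in members and 4.91 in Lyz2-high cells. At 7 weeks Cxcl10 had a UMI in only 4 of 25 members, and Lyz2-high cells held 8 Cxcl10 UMIs. For Cxcl9 the ratios were 0.247 in members, or 0.491 without the highest cell, and 1.49 in Lyz2-high cells. Cd209a had ratios of 0.381 in members and 1.77 in Lyz2-high cells, and Cd83 of 0.488 and 2.38. Il1b, which encodes interleukin 1 beta, had ratios of 0.577 in members and 1.52 in Lyz2-high cells. Tmem176b had ratios of 0.668 and 1.25, and Btg2, an antiproliferative gene, of 0.806 and 1.48. The other 2 genes were higher at 12 weeks in members and lower at 12 weeks in Lyz2-high cells. Id2 had ratios of 1.96 in members and 0.660 in Lyz2-high cells, and Ltb of 1.27 and 0.536.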

How the results depend on the processing

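No paired analysis was possible because each age had 1 library and the libraries share no replicate pairs. The ratio of member shares lay between 1.46 and 1.80 over 10 alternatives to the rule, and was 1.58 without the 2 barcodes found in both libraries, an alternative chosen after seeing the data. At least 10 UMIs in place of 30 gave 817 genes 2-fold or more higher in members at 12 weeks and 531 lower, and a fold of 1.5 in place of 2 gave 775 and 518. The count of higher genes was 175 without the 18 members that held cell cycle UMIs, also chosen after seeing the data, and the count of lower genes was 72 without the cell highest in each gene. The cell cycle list's median log2 ratio reversed to -0.091 without those 18 members and was 0.59 without members holding 2 or more Fscn1 UMIs. Most of the 18 members were also among those with 2 or more Fscn1 UMIs. At least 20 UMIs per library left 87 genes higher and 70 lower against Lyz2-high cells, and 110 higher and 26 lower against Xcr1 or Fscn1 cells. The cDC2 list's median log2 ratio lay between -0.55 and 0.13, and medians of other lists near 0 also changed sign. Scaling by TMM or by median of ratios changed no direction. Without members holding 2 or more Fscn1 UMIs the Rrm2 ratio was 2.03 and the Asf1b bound 1.08. Over the single genes and the smaller list values, alternatives kept 849 values within a set limit and moved 61 beyond it. The limit was the interval of the main value for genes by age. For list medians and ratios against the gates it was 1.5-fold from the main value. With 25 members and 276435 UMIs at 7 weeks, a gene at 0 there can be bounded only by the floor of 3 UMIs.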

Other observations

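Further groups of genes in the members were described by their counts. Of 12 genes of myosin phosphatase and contractility, the pathway in which Ppp1r14a acts, 0 passed 2-fold in either direction between the ages, with a median log2 ratio of 0.10. The other Ppp1r14 genes were low, with Ppp1r14b at 19.6 CPM in 12 week members and 28.9 CPM in 7 week members and Ppp1r14c at 1 and 0 UMIs. Rhoa, the GTPase upstream of the kinases Rock1 and Rock2, stood at 568 CPM in 12 week members and 535 CPM in 7 week members. Of the other short-chain fatty acid receptors, Ffar3 had 0 UMIs in members of both libraries. Gpr183, an oxysterol receptor that positions cDC2 in lymphoid tissue, stood at 177 CPM in 12 week members and 152 CPM in 7 week members. Of the 9 measured metabolite receptor and signalling genes 0 passed 2-fold.

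Cytokines that polarise T cells were at or near 0. Il12a, Il12b and Il23a had 0 UMIs in members of both libraries, and Il10 and Il6 had at most 1. Il1b stood at 142 CPM in 12 week members and 246 CPM in 7 week members. Among costimulatory ligands, Cd86 stood at 264 CPM in 12 week members and 246 CPM in 7 week members, and Cd274 (PD-L1) at 113 CPM and 97.7 CPM. Tnfsf9, the ligand of 4-1BB, had 40 UMIs at 12 weeks and 3 at 7 weeks, a ratio of 3.44 (interval 1.10 to 17.4). Of other complement genes beside Cfp, C3 had 2 UMIs in members at 12 weeks and 0 at 7 weeks. Of 16 type I interferon response genes 0 passed 2-fold, with a median log2 ratio of -0.31. Of 15 lysosome genes 1 was 2-fold higher at 12 weeks (Ctsc, ratio 2.26, interval 1.53 to 3.47) and 0 were lower.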
